A study of Mus musculus with 12 samples.

Results

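The genes described here encode mitochondrial ribosomal proteins, the protein components of the ribosome that works inside mitochondria. They were taken as every gene whose symbol begins with Mrpl or Mrps followed by a digit, the symbol being found through the RefSeq accession that the array design gives for each probe. A gene with several probes was represented by the brightest one, taken over all arrays. It was kept if its Cy5 signal was well above background on all 3 arrays of at least 1 group. The rule found 76 genes, measured by 110 probes in all, and all 76 passed the filter, among 11095 genes tested. Every one of the 76 was well above background on all 12 arrays, so no value rests on a bound. Mrps36 carries the family name but is now placed in the 2-oxoglutarate dehydrogenase complex; it was kept by the rule and is given apart.

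RNA came from mouse bone marrow-derived dendritic cells. Marrow of the femur and tibia was freed of B and T cells with antibodies and magnetic beads, and the remaining cells were cultured over 5 days in 10 ng/ml GM-CSF plus 5 ng/ml IL-4, cytokines that turn marrow precursors into cells resembling dendritic cells. The cultures then received LPS, the bacterial cell wall component that activates Toll-like receptor 4, at 100 ng/ml. The 4 groups were unstimulated cells (0 h) and cells after 1, 6 or 24 h of LPS, with 3 arrays each. The labels describe the arrays of a group as biological replicates and give each a donor letter, A, B or C; strain, age and sex of the mice, and whether a letter stands for 1 animal or a pool, are not given there. Unstimulated cells were collected at 0 h only, so LPS and added time in culture cannot be told apart. These are bulk samples, in which fewer cells of a type and less RNA per cell cannot be told apart.

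Mitochondria carry their own small genome, which encodes core subunits of the respiratory chain and of ATP synthase, and those subunits are translated on mitochondrial ribosomes. The ribosomal RNAs come from mitochondrial DNA, whereas all the ribosomal proteins are encoded in the nucleus, made in the cytosol and imported. Some of them descend from the proteins of bacterial ribosomes and line the decoding and peptide-bond-forming centres. Others have no bacterial counterpart and were added during mitochondrial evolution. Dendritic cells activated through Toll-like receptors are known to move from oxidative phosphorylation towards glycolysis.

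Each array compared Cy5-labelled sample RNA with the same Cy3-labelled pool of mouse reference RNA. A level is therefore a log2 ratio of sample over reference, and a change is the difference between 2 group means of that ratio, in which the reference cancels. Between 48.1% and 57.6% of probes were well above background in Cy5 on an array, and no spot was saturated. Arrays of the same group correlated with r between 0.946 and 0.984 across genes. The file headers place the arrays on 4 slides, and no group was spread evenly over them. All unstimulated arrays shared slide 1 with donor A at 1 h. Donor B at 1 h and at 24 h made up slide 2. Donor C at 1 h lay beside donors A and B at 6 h on slide 3, and donor C at 6 h beside donors A and C at 24 h on slide 4. Of 12 listed markers of conventional dendritic cells, 11 were tested, and their mean log2 ratio was between 2.79 and 3.55 on every array; Cd209a was never well above background. Neutrophil markers were also present in the unstimulated cultures and were lower after LPS, as given beside the results they move with.

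Transcripts for mitochondrial ribosomal proteins fell broadly in the LPS-treated cells. Across the 4 groups together, the moderated F test called 49 of the 76 genes (64.5%), against 51.7% of all genes tested. A call here is an adjusted p-value under 0.05 from limma. At 6 h, 43 genes fell (56.6% of the family, where 23.6% of all genes tested were called lower) and 1 rose (1.32%, against 16.1%). At 24 h, 41 fell (53.9%, against 21.4%) and 5 rose (6.58%, against 17.9%). At 1 h, 4 fell (5.26%, against 3.39%) and none rose, where 4.05% of all genes tested were called higher; none was higher at an unadjusted p under 0.05 either, whereas 25 were lower.

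The median change over the 76 genes was −0.20 at 1 h, −0.43 at 6 h and −0.35 at 24 h on the log2 scale, beside medians of 0.02, −0.04 and 0.02 over all genes tested. The changes were moderate for most genes: the lower quartile of the family was −0.71 at 6 h, and the lowest value was −1.37. Falls of at least 2-fold were called for 7 genes at 6 h (5.76% of all genes tested met that rule) and for 8 genes at 24 h (6.55%), and no gene of the family rose by that much. The same 3 unstimulated arrays enter all 3 of these comparisons, so the values at the 3 times are not independent of each other. The mean was highest in unstimulated cells for 55 of the 76 genes, and it was lowest at 6 h for 40 and at 24 h for 23. These counts were not made over all genes tested, so they do not set the family apart.

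**Figure D1:**
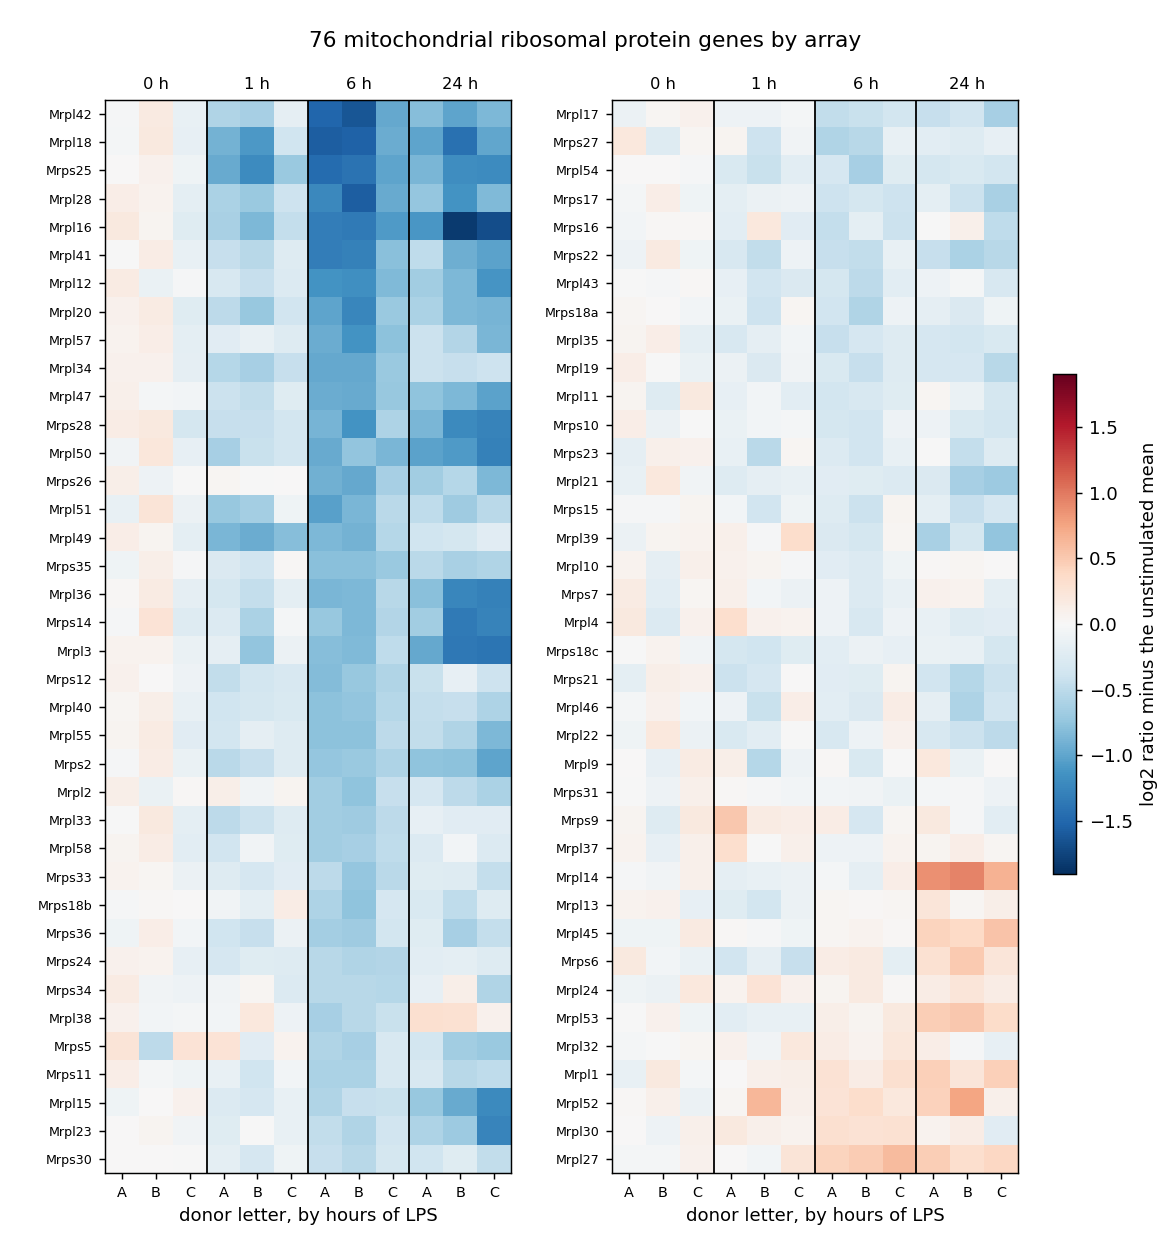
Each row is 1 of the 76 genes, ordered by its change at 6 h, and each column 1 array, grouped by hours of LPS and marked with the donor letter; colour gives the log2 ratio minus the gene's unstimulated mean. Blue fills most of the 6 h and 24 h columns, the 6 h array C is paler than A and B, and some genes in the lower part of the right panel, among them Mrpl14 and Mrpl27, are red.

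With slide as a fixed block, the calls were fewer, at 21 lower and 0 higher at 6 h, 16 lower and 0 higher at 24 h, and 2 lower at 1 h. Calls fell over the whole array in that fit, with 1008 of 11095 genes lower at 6 h in place of 2613 and 913 at 24 h in place of 2377. At 1 h, 55 were lower in place of 376. At 6 and 24 h, 949 and 848 were higher in place of 1783 and 1990. At an unadjusted p under 0.05 in that fit, 0 genes of the family were higher at 6 h and 2 at 24 h. The medians with the block were −0.48 at 6 h, −0.45 at 24 h and −0.21 at 1 h, beside −0.43, −0.35 and −0.20 without it. In that fit the unstimulated cells are linked to the other slides only through the 1 h array of donor A. Its values against unstimulated cells therefore hang on that 1 array, and a slide effect was not tested by them. Within slide 1, the 1 h array of donor A differed from the mean of the unstimulated arrays by a median of −0.21 over the family, beside 0.01 over all genes. In the family 57 of 76 genes were lower. Within slide 3, the 6 h arrays A and B differed from the 1 h array C by −0.38, beside −0.05, with 65 of 76 lower. Within slide 2, the 24 h array B differed from the 1 h array B by −0.10, beside −0.04, with 45 of 76 lower. The share of all genes that were lower was not counted for these differences. No slide held unstimulated arrays together with 6 h or 24 h arrays. With the donor letter as a block, 7 genes rather than 4 were called lower at 1 h, the added ones being Mrpl16, Mrpl28 and Mrpl50, each with an adjusted p of 0.037 or 0.038, and 7 rather than 5 were called higher at 24 h. Over all genes, the donor fit called 519 lower at 1 h and 2172 higher at 24 h, in place of 376 and 1990. The family's count of lower genes at 1 h also moved with single arrays. It was 2 without unstimulated array A or B or the 1 h array B, 7 without unstimulated array C and 9 without the 1 h array C. When each array was only centred on its median instead of corrected by loess, 10 genes were called lower at 6 h, 21 at 24 h and none at 1 h (11 there at an unadjusted p under 0.05), and none was called higher at any of these times (0, 2 and 0 at 1, 6 and 24 h at an unadjusted p under 0.05). Of all 11095 genes, that fit called 46, 659 and 1503 lower at 1, 6 and 24 h, and 179, 1358 and 832 higher. The family's medians stayed below 0 in that fit, at −0.43, −0.36 and −0.62 at 1, 6 and 24 h, beside −0.12, 0.05 and −0.11 over all genes. Over the values of the named genes in the comparisons they were chosen for, 42 lost their call with median centring and 19 when normexp was applied to every local background as deposited.

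The arrays of a group were not alike in how far the family had fallen. At 6 h the family's median log2 ratio was −0.43 in donor A, −0.49 in donor B and −0.25 in donor C, and donor C was the highest of the 3 for 58 of the 76 genes. At 1 h, donor C was likewise the highest for 48 genes, with a median of 0.01 against −0.11 in donor A and −0.21 in donor B. At 24 h donor A was the highest for 46 genes. In the unstimulated cells the medians were 0.06, 0.10 and 0.04 for donors A, B and C. The 6 h array C also lay on another slide than the 6 h arrays A and B, so donor and slide cannot be told apart there.

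Promoter sequences are shown for the genes with the largest falls at 6 h, Mrpl42 and Mrpl18, for the one with the largest fall at 24 h, Mrpl16, and for the ones with the largest rises at these times, Mrpl27 at 6 h and Mrpl14 at 24 h. Nuclear genes for mitochondrial proteins are known to be driven by NRF1 and by the ETS-family factor GABPA, with YY1 and Sp1 sites also common. RefSeq promoter windows of the mouse build GRCm38.p6, which run from 250 bases before a transcript's start to 50 after it, were available for 67 of the 76 genes, in 70 windows. Of these windows, 35.7% held the ETS/GABPA motif CCGGAAG on either strand, against 8.86% of all 32851 windows. The YY1 motif AANATGGCG was in 15.7% against 2.38%, and the NRF1 motif in 7.14% against 2.27%. The Sp1 motif GGGCGG was in 51.4% against 35.7%, and the E-box CACGTG, which MYC binds, in 10% against 7.15%. The 7 windows with an E-box belonged to only 5 of the 67 genes, because overlapping windows of Mrpl2 hold the same match. The 10% thus counts 1 site more than once and shows no clear excess. None of the 5 motifs contains another, although matches of 1 motif can overlap. The 250 bases before the start are printed 5′ to 3′ on the gene's own strand, with any match to these 5 motifs in capitals.
Mrpl42: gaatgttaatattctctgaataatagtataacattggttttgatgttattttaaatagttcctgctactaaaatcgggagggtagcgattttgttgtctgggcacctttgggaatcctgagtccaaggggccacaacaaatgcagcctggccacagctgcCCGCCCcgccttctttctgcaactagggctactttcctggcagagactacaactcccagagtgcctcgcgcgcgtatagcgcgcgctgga
Mrpl18: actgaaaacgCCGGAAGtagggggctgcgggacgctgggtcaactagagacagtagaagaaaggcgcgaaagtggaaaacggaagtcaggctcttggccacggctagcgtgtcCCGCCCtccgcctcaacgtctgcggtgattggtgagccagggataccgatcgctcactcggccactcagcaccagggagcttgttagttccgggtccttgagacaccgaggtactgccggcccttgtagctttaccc
Mrpl16: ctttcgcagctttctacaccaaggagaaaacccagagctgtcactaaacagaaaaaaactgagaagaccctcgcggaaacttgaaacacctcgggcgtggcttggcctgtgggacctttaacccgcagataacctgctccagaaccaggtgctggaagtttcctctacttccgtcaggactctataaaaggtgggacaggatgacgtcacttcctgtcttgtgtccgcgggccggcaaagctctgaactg
Mrpl14: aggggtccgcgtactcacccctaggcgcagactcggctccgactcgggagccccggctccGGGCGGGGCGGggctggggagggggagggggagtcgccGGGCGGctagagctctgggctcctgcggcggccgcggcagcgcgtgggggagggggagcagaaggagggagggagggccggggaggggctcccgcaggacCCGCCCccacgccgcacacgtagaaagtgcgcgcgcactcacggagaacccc
Mrpl27: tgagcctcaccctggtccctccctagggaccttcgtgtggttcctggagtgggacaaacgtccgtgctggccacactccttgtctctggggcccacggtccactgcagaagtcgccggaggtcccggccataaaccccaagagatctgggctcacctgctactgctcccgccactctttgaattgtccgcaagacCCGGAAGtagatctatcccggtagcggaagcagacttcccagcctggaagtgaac
The printed stretch of Mrpl42 lies at chr10:95501950-95502199 on the minus strand, that of Mrpl18 at chr17:12916092-12916341 on the minus strand, that of Mrpl16 at chr19:11770165-11770414 on the plus strand, that of Mrpl14 at chr17:45686099-45686348 on the plus strand and that of Mrpl27 at chr11:94653541-94653790 on the plus strand. Among the printed bases, Mrpl18 and Mrpl27 have an ETS/GABPA match, Mrpl42, Mrpl18 and Mrpl14 have Sp1 matches, and Mrpl16 has none of the 5 motifs. The full windows of Mrpl42 and Mrpl27, which run 50 bases past the start, also hold a YY1 match that does not lie wholly within the printed bases. Over the family, the 25 genes with an ETS/GABPA match had a median change of −0.41 at 6 h and the 42 without one had −0.45. The 5 genes with an NRF1 match had a median of −0.09, and the 62 without one −0.49. The 11 genes with a YY1 match had −0.44 and the 56 without one −0.40, and at 24 h −0.21 and −0.40. The 33 genes with an Sp1 match had −0.50 at 6 h and the 34 without one −0.34, and the 5 with an E-box had −0.62 and the 62 without one −0.42. These medians are descriptions and were not tested, and a match says nothing of whether a factor bound there.

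Many of these genes share their promoter region with a neighbour. Of the 67 genes with a window, 26 (38.8%) had the start of another gene within 1000 bases upstream on the opposite strand, against 12.2% of all genes in the promoter table. One such pair lies within the family: Mrps11, of the small subunit, and Mrpl46, of the large subunit, start 42 bases apart and read away from each other. The sequence before Mrps11, at chr7:78782881-78783130 on the plus strand, carries a YY1 and an Sp1 match, shown in capitals. The Sp1 match lies between the starts and so before both genes, whereas the YY1 match lies past the Mrpl46 start.
Mrps11: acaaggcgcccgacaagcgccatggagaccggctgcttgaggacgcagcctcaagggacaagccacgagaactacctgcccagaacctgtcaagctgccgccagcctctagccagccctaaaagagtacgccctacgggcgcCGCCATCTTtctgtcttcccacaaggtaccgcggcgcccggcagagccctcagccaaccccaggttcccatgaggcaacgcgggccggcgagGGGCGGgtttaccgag
Mrps11 had log2 ratios of 0.07, −0.09 and −0.14 in unstimulated cells, −0.65, −0.65 and −0.35 at 6 h, and −0.36, −0.58 and −0.54 at 24 h. It fell by 0.50 at 6 h (SE 0.13, adjusted p = 0.0086). Mrpl46 stood at 0.31, 0.44 and 0.30 in unstimulated cells, 0.15, 0.08 and 0.50 at 6 h, and 0.18, −0.23 and −0.01 at 24 h. Its change was −0.11 at 6 h (SE 0.16, adjusted p = 0.65) and −0.37 at 24 h (SE 0.16, adjusted p = 0.088), and neither was called. The difference between the 2 genes was not tested.

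For the counts by subunit, 23.6% of all genes tested were called lower and 16.1% higher at 6 h, and 21.4% and 17.9% at 24 h. The large subunit, where peptide bonds are formed, was represented by 49 genes. Of its 30 proteins with a bacterial counterpart, 17 fell and 1 rose at 6 h, with a median change of −0.38, and 18 fell and 3 rose at 24 h, with a median of −0.41. Of its 19 mitochondria-specific proteins, 12 fell at 6 h, with a median of −0.44, and 9 fell and 2 rose at 24 h, with a median of −0.32. The small subunit, which reads the messenger, was represented by 26 genes. Among its 16 proteins with a bacterial counterpart, 7 fell at 6 h and 8 at 24 h, with medians of −0.36 and −0.32. Among its 10 mitochondria-specific proteins, 6 fell at 6 h and 5 at 24 h, with medians of −0.55 and −0.32. No gene of the small subunit was called higher than in unstimulated cells at any time by limma, and 1 was higher at 24 h at an unadjusted p under 0.05. The groups were not tested against each other, and their ranges overlapped almost wholly: at 6 h the large subunit ran from −1.37 to 0.50 and the small subunit from −1.29 to 0.04. Mrps36 fell by 0.56 at 6 h (adjusted p = 0.0074) and by 0.44 at 24 h (adjusted p = 0.026). A second, slightly dimmer Mrps36 probe changed by −0.38 and −0.27 at these times (adjusted p = 0.041 and 0.13 over all probes), so the 24 h call depends on the probe.

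**Figure D2:**
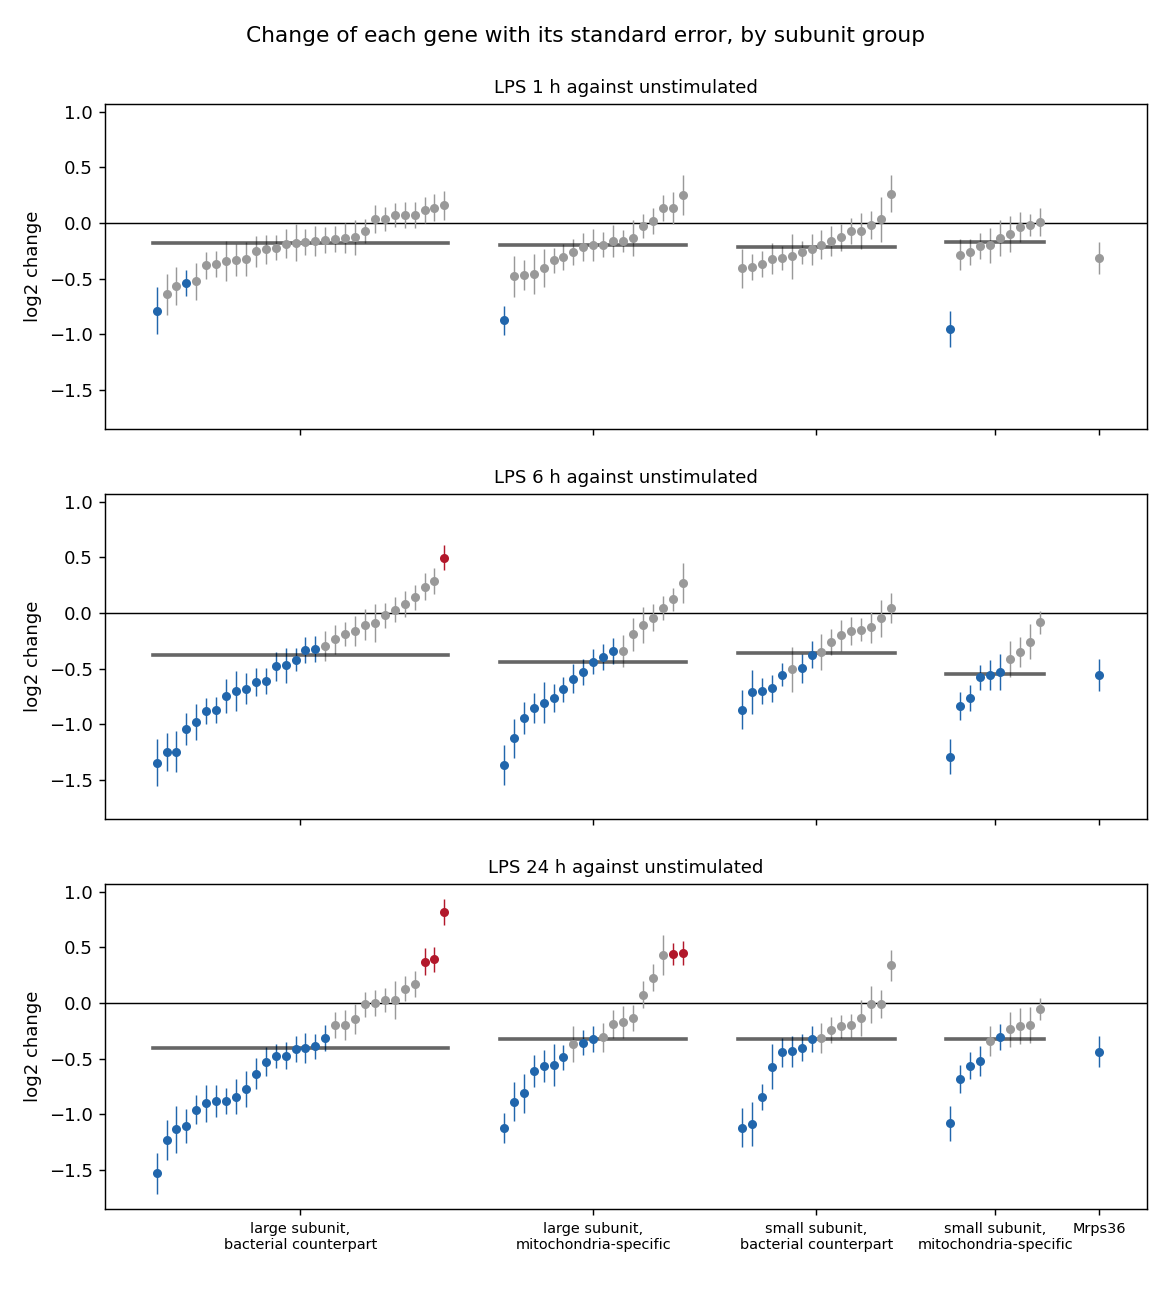
Each point is 1 gene's log2 change from unstimulated cells at 1, 6 or 24 h with its standard error, sorted within its subunit group; blue points were called lower, red points higher, grey points neither, and the black line is the group's median. All 4 groups have medians below 0 at each time, and the red points lie in the large subunit only (1 at 6 h and 5 at 24 h).

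Mrpl16, a large-subunit protein that lies near the centre where peptide bonds form, had the largest fall of the family at 24 h. Its log2 ratios were 2.28, 2.14 and 1.85 in unstimulated cells, 1.47, 1.23 and 1.63 at 1 h, 0.77, 0.75 and 1.01 at 6 h, and 0.99, 0.27 and 0.41 at 24 h. Each LPS-treated array was below all unstimulated arrays, and at 24 h donor A stood above donors B and C. The change was −1.25 at 6 h, a 2.38-fold fall (SE 0.19, adjusted p = 0.00022), and −1.53 at 24 h, a 2.90-fold fall (SE 0.19, adjusted p = 5.3e-05). At 1 h it was −0.64 (SE 0.19, adjusted p = 0.055), which was not called.

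Mrpl42, a large-subunit protein without a bacterial counterpart, had the largest fall at 6 h. It stood at −0.03, 0.17 and −0.15 in unstimulated cells, at −0.58, −0.64 and −0.17 after 1 h, at −1.51, −1.63 and −0.98 after 6 h, and at −0.81, −1.01 and −0.86 after 24 h. The 3 arrays at 6 h were below every array of unstimulated cells and of 1 h, and donor C was the least reduced. The fall at 6 h was 2.58-fold (log2 change −1.37, SE 0.18, adjusted p = 7.7e-05) and that at 24 h 1.85-fold (log2 change −0.89, SE 0.18, adjusted p = 0.0017).

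Mrpl18, which sits in the central protuberance of the large subunit, had log2 ratios of 0.65, 0.88 and 0.54 in unstimulated cells, −0.21, −0.40 and 0.31 at 1 h, −0.88, −0.85 and −0.26 at 6 h, and −0.32, −0.74 and −0.29 at 24 h. All LPS-treated arrays were below the unstimulated ones, with donor C highest at each time after LPS. It fell 2.55-fold at 6 h (log2 change −1.35, SE 0.21, adjusted p = 0.00032) and 2.20-fold at 24 h (log2 change −1.14, SE 0.21, adjusted p = 0.0011). The fall of 0.79 at 1 h (SE 0.21, adjusted p = 0.042) was near the threshold. It missed the threshold once slide was a block (adjusted p = 0.071). It also did so without any single unstimulated array, without donor A or B at 1 h, without the 6 h array A or without the 24 h array C (adjusted p up to 0.17). The call was also lost with normexp on every local background (adjusted p = 0.094), scanner-processed signals (0.058), no filter (0.055) and the mean of its probes (0.071). Its other probes changed by −0.62 and −0.64 at 1 h and were not called (adjusted p = 0.095 and 0.10 over all probes).

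Mrps25, a mitochondria-specific protein of the small subunit, was the most reduced small-subunit gene at 1 and 6 h. Its brighter probe gave 0.83, 0.91 and 0.74 in unstimulated cells, −0.13, −0.37 and 0.12 at 1 h, −0.64, −0.58 and −0.18 at 6 h, and −0.04, −0.35 and −0.37 at 24 h. All arrays after LPS were below all unstimulated arrays. The changes were −0.95 at 1 h (SE 0.16, adjusted p = 0.0029), −1.29 at 6 h (adjusted p = 5.1e-05) and −1.08 at 24 h (adjusted p = 2e-04). A second, dimmer Mrps25 probe changed by −0.24, −0.27 and −0.14 at those times, with adjusted p-values of 0.27, 0.11 and 0.44. The mean of both probes gave −0.60 at 1 h and −0.78 at 6 h, so the size of the fall depends on the probe.

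Mrpl28 and Mrpl41 were the other large-subunit genes with over 2-fold falls at 6 h, beside Mrpl12. Mrpl28, with a bacterial counterpart, stood at 0.18, 0.12 and −0.13 in unstimulated cells and at −1.17, −1.52 and −0.90 at 6 h, a fall of 2.38-fold (SE 0.17 on the log2 scale, adjusted p = 0.00011). Mrpl41, without such a counterpart, stood at 0.91, 1.06 and 0.78 and then at −0.40, −0.36 and 0.13, a fall of 2.19-fold (SE 0.17, adjusted p = 0.00028; 0.053 with median centring). Neither gene's groups overlapped, and in both the 6 h array C was the highest. At 24 h the falls were smaller for both genes, at −0.90 for Mrpl28 (adjusted p = 0.0011) and −0.81 for Mrpl41 (adjusted p = 0.0027).

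Mrpl12 encodes the protein of the flexible stalk that recruits translation factors, and the protein is also known to bind the mitochondrial RNA polymerase. Its log2 ratios were 0.26, −0.03 and 0.08 in unstimulated cells, −0.20, −0.33 and −0.15 at 1 h, −1.03, −1.06 and −0.73 at 6 h, and −0.56, −0.76 and −1.02 at 24 h. The 6 h and 24 h arrays were all below the 1 h arrays, and these were all below the unstimulated arrays. The change was −0.33 at 1 h (SE 0.14, adjusted p = 0.18), −1.04 at 6 h (adjusted p = 0.00012) and −0.88 at 24 h (adjusted p = 0.00041). With slide as a block, the 24 h value was −0.93 with an adjusted p of 0.056.

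Another set of genes stood lowest at 24 h. Mrpl3, a core large-subunit protein, went from 0.68, 0.68 and 0.48 in unstimulated cells to −0.19, −0.22 and 0.14 at 6 h and −0.36, −0.74 and −0.77 at 24 h. Its 24 h arrays were all below its 6 h arrays, and the fall from unstimulated cells was 2.35-fold at 24 h (log2 change −1.24, SE 0.18, adjusted p = 0.00019). Mrpl50, mitochondria-specific, went from −0.09, 0.19 and −0.18 to −0.99, −0.77 and −0.89 at 6 h and −1.04, −1.10 and −1.31 at 24 h. That is a fall of 2.18-fold at 24 h (log2 change −1.12, SE 0.13, adjusted p = 4.2e-05), again with every 24 h array below every 6 h array. A dimmer Mrpl50 probe changed by −0.36 at 6 h and −0.49 at 24 h and was not called (adjusted p = 0.25 and 0.12 over all probes). The mean of its probes gave −0.81 at 24 h (adjusted p = 0.0014), so the size of this fall depends on the probe. For neither gene was the step from 6 to 24 h called (adjusted p = 0.059 for Mrpl3 and 0.19 for Mrpl50); with the donor letter as a block, that of Mrpl3 was (log2 change −0.53, adjusted p = 0.043).

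Mrps28, Mrpl36 and Mrps14 completed the genes that fell at least 2-fold at 24 h. Mrps28, of the small subunit, had 0.49, 0.54 and 0.02 in unstimulated cells and −0.52, −0.87 and −0.93 at 24 h (log2 change −1.12, SE 0.17, adjusted p = 0.00029). Mrpl36, a small zinc-binding protein of the large subunit, had 0.71, 0.84 and 0.52 and then −0.11, −0.54 and −0.59 (log2 change −1.10, SE 0.15, adjusted p = 0.00014). Mrps14, of the small subunit's head, had 0.21, 0.49 and −0.01 and then −0.43, −1.11 and −1.03 (log2 change −1.09, SE 0.20, adjusted p = 0.00097). In all 3 genes the 24 h arrays were below the unstimulated ones and donor A was the highest at 24 h.

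**Figure D3:**
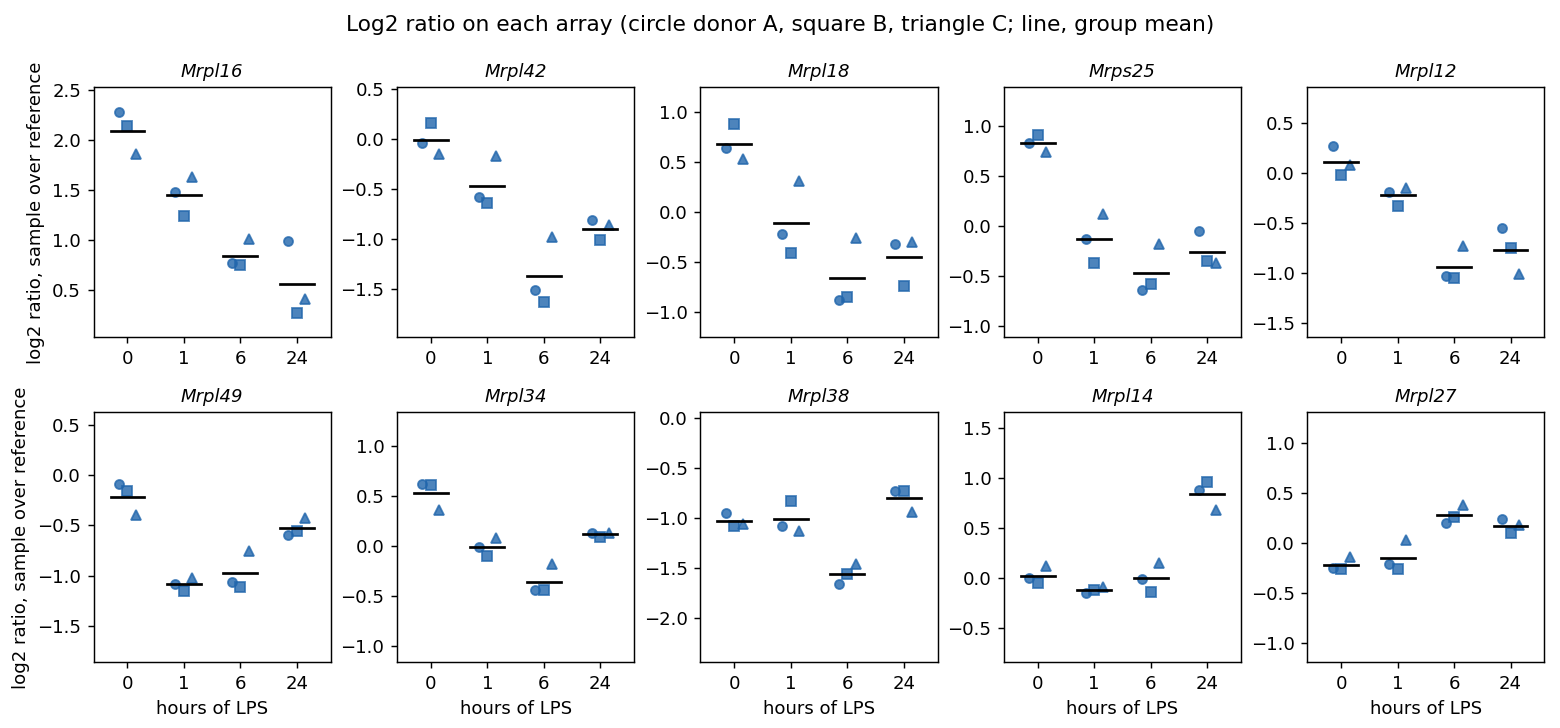
Points give the log2 ratio of sample over reference on each array for 10 genes, against hours of LPS, with a line at each group mean; panels span equal ranges but start at different levels. Mrpl16, Mrpl42, Mrpl18, Mrps25 and Mrpl12 lie below their unstimulated points at 6 and 24 h, Mrpl49 is already low at 1 h, Mrpl34 and Mrpl38 are lowest at 6 h, and Mrpl14 and Mrpl27 are above their unstimulated points at 24 h.

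Only Mrps25, Mrpl49, Mrpl18 and Mrpl34 were called at 1 h, and none of the 4 with median centring, where they changed by −1.18, −1.19, −1.06 and −0.76 (adjusted p = 0.11, 0.084, 0.32 and 0.28). Mrpl49, a mitochondria-specific protein of the large subunit, stood at −0.08, −0.16 and −0.40 in unstimulated cells, −1.09, −1.16 and −1.03 at 1 h, −1.07, −1.12 and −0.75 at 6 h, and −0.59, −0.55 and −0.42 at 24 h. With this, its brightest probe, it was lowest at 1 h, where no array overlapped the unstimulated range. The change was −0.88 at 1 h (SE 0.13, adjusted p = 0.0011), −0.77 at 6 h (adjusted p = 0.00048) and −0.31 at 24 h (adjusted p = 0.073). A slightly dimmer Mrpl49 probe changed by −0.37, −0.72 and −0.54 at 1, 6 and 24 h (adjusted p = 0.094, 0.00075 and 0.0053 over all probes). The dimmest Mrpl49 probe changed by −0.86, −0.76 and −0.45 (adjusted p = 0.043, 0.023 and 0.16 over all probes). The time of the lowest value and the calls at 1 and 24 h thus depend on the probe. Mrpl34, a short basic protein of the large subunit, stood at 0.62, 0.62 and 0.36, then at −0.01, −0.10 and 0.09 at 1 h, and at −0.44, −0.44 and −0.18 at 6 h. Its fall of 0.54 at 1 h (SE 0.12, adjusted p = 0.016) was not called with slide as a block (adjusted p = 0.17), nor without unstimulated array A or B or the 1 h array B (adjusted p up to 0.088). Its fall of 0.88 at 6 h had an adjusted p of 9.8e-05.

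The small-subunit genes Mrps12, Mrps18b and Mrps35 fell at 6 h. Mrps12, part of the decoding centre, went from 1.08, 1.01 and 0.91 in unstimulated cells to 0.18, 0.29 and 0.43 at 6 h (log2 change −0.70, SE 0.12, adjusted p = 0.00046). At 24 h it stood at 0.58, 0.84 and 0.60 (log2 change −0.33, adjusted p = 0.041), a call lost under the slide block (adjusted p = 0.18) and without any of 6 single arrays (adjusted p up to 0.13). These were the unstimulated arrays A and B, the 1 h array C, the 6 h array B and the 24 h arrays A and C. Mrps35 went from −0.27, −0.08 and −0.22 to −0.99, −0.98 and −0.89 at 6 h (log2 change −0.76, SE 0.12, adjusted p = 0.00028). Mrps18b went from 0.07, 0.12 and 0.11 to −0.49, −0.67 and −0.23 (log2 change −0.56, SE 0.13, adjusted p = 0.0051). At 24 h Mrps35 was changed by −0.56 (adjusted p = 0.0023) and Mrps18b by −0.34 (adjusted p = 0.062); with slide as a block the former had an adjusted p of 0.06, and with the donor letter as a block the latter had 0.031. Without the 6 h array C, Mrps18b was called at 24 h too. At 6 h the falls of Mrps12, Mrps18b and Mrps35 were not called with median centring (adjusted p = 0.088, 0.27 and 0.10). With normexp on every local background the 6 h values were −0.34 for Mrps18b (adjusted p = 0.13) and −0.50 for Mrps35 (adjusted p = 0.084).

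A few large-subunit genes went the other way. Mrpl14, which lies on the face of the large subunit that meets the small one, had log2 ratios of 0.00, −0.05 and 0.12 in unstimulated cells, −0.15, −0.12 and −0.09 at 1 h, −0.01, −0.14 and 0.16 at 6 h, and 0.89, 0.97 and 0.69 at 24 h. All 24 h arrays were above all other arrays. The rise at 24 h was 1.77-fold (log2 change 0.82, SE 0.12, adjusted p = 0.00016), and the slide block gave 0.74 with an adjusted p of 0.06. With median centring it was 0.54 (adjusted p = 0.15). Within slide 2, Mrpl14 was higher by 1.08 in donor B at 24 h than at 1 h, and within slide 4 the 24 h arrays were 0.63 above the 6 h array.

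Mrpl27, which in bacteria reaches into the peptidyl transferase centre, was the only gene called higher at 6 h. It stood at −0.25, −0.26 and −0.15 in unstimulated cells, −0.21, −0.27 and 0.03 at 1 h, 0.20, 0.25 and 0.37 at 6 h, and 0.24, 0.10 and 0.18 at 24 h. The 6 h and 24 h arrays were all above those of the earlier times. The change was 0.50 at 6 h (SE 0.11, adjusted p = 0.0035) and 0.39 at 24 h (adjusted p = 0.014), whereas the slide block gave 0.31 (adjusted p = 0.35) and 0.24 (adjusted p = 0.48). Median centring gave 0.67 (adjusted p = 0.15) and 0.14 (adjusted p = 0.79). Mrpl45, which tethers the mitochondrial ribosome to the inner membrane, rose by 0.45 at 24 h (adjusted p = 0.0049), Mrpl53 by 0.44 (adjusted p = 0.004) and Mrpl1, of the stalk beside the tRNA exit site, by 0.37 (adjusted p = 0.024). In these 3 genes, too, every 24 h array was above every unstimulated array. The slide block gave adjusted p-values of 0.15, 0.26 and 0.63, median centring 0.58, 0.63 and 0.58, and the call of Mrpl1 was also lost without unstimulated array A or C or the 24 h array A or C (adjusted p up to 0.10).

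Between 1 h and 6 h of LPS, 19 genes fell (25% of the family, where 16.2% of all genes tested were called lower) and 1, Mrpl27, rose (1.32%, against 12%). The median change was −0.28, beside −0.09 over all genes. The largest falls were those of Mrpl42 (log2 change −0.91, adjusted p = 0.0022), Mrps26 (−0.85, adjusted p = 0.00031), Mrpl57 (−0.75, adjusted p = 0.002) and Mrpl41 (−0.72, adjusted p = 0.008). Mrps26, a mitochondria-specific small-subunit protein, stood at 0.15, −0.07 and 0.02 in unstimulated cells and 0.06, 0.02 and 0.04 at 1 h, and then at −0.88, −0.95 and −0.59 at 6 h. Its 1 h arrays lay inside the unstimulated range and its 6 h arrays wholly below both. Mrpl57, a small mitochondria-specific protein of the large subunit, stood at 0.30, 0.38 and 0.28 at 1 h and −0.43, −0.61 and −0.26 at 6 h. Without the 1 h array C or the 6 h array A, 11 genes of the family were called lower, and without the 6 h array B, 10; without the 1 h array B or the 6 h array C, 2 were called higher. Mrpl27 was higher by 0.43 (adjusted p = 0.013), which was not called with slide as a block (adjusted p = 0.14). With the donor letter as a block 2 genes of the family were called higher, beside 1435 of all genes. When the ratios were only centred on their median in place of loess, the family's median change turned to 0.032, beside 0.13 over all genes, and none was called lower (1 at an unadjusted p under 0.05). A single gene of the family was called higher there, and none of its genes called with loess kept its call. Over all genes, that setting called 1206 higher and 246 lower.

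Between 6 h and 24 h, 10 genes rose (13.2%, against 9.65% of all genes tested) and 1 fell (1.32%, against 8.73%), with a median change of 0.12 beside 0.04 over all genes. The largest rises were those of Mrpl14 (log2 change 0.84, adjusted p = 0.00047) and Mrpl38 (0.76, adjusted p = 0.0011). Mrpl38, a mitochondria-specific protein of the central protuberance, stood at −0.96, −1.08 and −1.06 in unstimulated cells, −1.08, −0.83 and −1.13 at 1 h, −1.66, −1.56 and −1.46 at 6 h, and −0.73, −0.74 and −0.94 at 24 h. With this, its brighter probe, it was low at 6 h alone, with no overlap with any other time. Its change from unstimulated cells was −0.53 at 6 h (adjusted p = 0.0033) and 0.23 at 24 h (adjusted p = 0.15). With normexp applied to every local background its 24 h rise over 6 h was 0.48 (adjusted p = 0.17). A dimmer Mrpl38 probe changed by −0.25 at 6 h from unstimulated cells (adjusted p = 0.27 over all probes). From 6 to 24 h that probe changed by 0.43 (adjusted p = 0.099), and neither change was called. Mrpl34 (0.47, adjusted p = 0.016) and Mrpl49 (0.46, adjusted p = 0.027) were also called higher than at 6 h, and both stood below their unstimulated means at 24 h. Neither was called without the 6 h array A or B, nor was Mrpl49 without the 24 h array C (adjusted p up to 0.11). With normexp on every local background Mrpl49 was higher by 0.28 (adjusted p = 0.27). The mean of its probes gave 0.32 (adjusted p = 0.16). Mrpl45 (0.40, adjusted p = 0.02), Mrps12 (0.38, adjusted p = 0.041) and Mrpl53 (0.32, adjusted p = 0.045) were among the other genes that rose; with the donor letter as a block Mrpl53 was not called (adjusted p = 0.052).

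Mrpl15 was the only gene called lower at 24 h than at 6 h, going from −0.51, −0.38 and −0.36 to −0.65, −0.89 and −1.15 (log2 change −0.48, SE 0.13, adjusted p = 0.023); it was not called without the 6 h array B or C or the 24 h array C (adjusted p up to 0.088). Much of the 6 to 24 h comparison rested on few arrays. Without the 6 h array A or B, 2 genes of the family were called higher; without the 24 h arrays A, B or C, the counts were 5, 5 and 4. With slide as a block, 2 were called higher, Mrpl14 (adjusted p = 0.014) and Mrpl38 (adjusted p = 0.024), and none lower, although 3 were lower at an unadjusted p under 0.05. Over all genes, 424 were called higher and 444 lower with that block. Mrpl34, Mrpl49 and Mrpl15 had adjusted p-values of 0.12, 0.20 and 0.15 in that fit. Within slide 4, the 24 h arrays A and C differed from the 6 h array C by a median of −0.03 over the family, beside 0.02 over all genes. In the family 41 of 76 genes were lower. Centring on the median in place of loess turned the family's median to −0.24, beside −0.18 over all genes. None of the family was called in either direction (1 higher and 7 lower at an unadjusted p under 0.05). Of all genes, 96 were called higher and 831 lower in that setting. With the donor letter as a block 2 genes of the family were called lower, Mrpl3 beside Mrpl15, where 1127 of all genes were.

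Several probes of a gene did not always show the same size of change. For 24 genes more than 1 probe passed the filter, and none of them was called in opposite directions by its probes in any comparison. At 6 h, 10 of the 24 were called by some of their probes only. Mrps2, of the small subunit, fell by 0.68 at 6 h with its brighter probe (adjusted p = 0.00079 over all probes), whereas its second probe changed by 0.11 (adjusted p = 0.59). For Mrps7 the brighter probe changed by −0.17 at 6 h (adjusted p = 0.35) and the second by −0.66 (adjusted p = 0.0018). Whether the probes match different transcripts of a gene was not tested.

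The other parts of the mitochondrial translation system were examined with lists from textbook knowledge. Beside their counts, 23.6% of all genes tested were called lower at 6 h and 21.4% at 24 h. Of 5 mitochondrial ribosomal proteins with other symbols, 4 fell at 6 h and 2 at 24 h, and none rose (none was higher at an unadjusted p under 0.05). Ptcd3, a small-subunit protein with RNA-binding repeats, stood at −0.58, −0.44 and −0.71 in unstimulated cells, −1.27, −1.38 and −0.86 at 1 h, −1.67, −1.71 and −1.33 at 6 h, and −1.75, −1.89 and −1.92 at 24 h. Its arrays after LPS were all below the unstimulated ones, and the change was −0.99 at 6 h (adjusted p = 0.00027) and −1.27 at 24 h (adjusted p = 4.7e-05). Dap3, a GTP-binding protein of the small subunit first found in a screen for mediators of cell death, fell by 0.55 at 6 h (adjusted p = 0.0011) and 0.41 at 24 h (adjusted p = 0.0069); the slide block gave adjusted p-values of 0.088 and 0.17. Gadd45gip1, a large-subunit protein, fell by 0.82 at 6 h (adjusted p = 0.0044), which with slide as a block was −0.50 (adjusted p = 0.29).

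Of 15 mitochondrial translation factors and partners tested, 6 fell at 6 h and 6 at 24 h, where 1, the initiation factor gene Mtif3, rose. Among all genes tested, 23.6% and 21.4% were called lower at these times, and 17.9% higher at 24 h. Lrpprc, which stabilises mitochondrial messengers, stood at −0.10, −0.29 and −0.38 in unstimulated cells, −1.32, −1.49 and −1.11 at 6 h and −1.28, −1.87 and −1.74 at 24 h (log2 change −1.05 and −1.37, adjusted p = 0.00021 and 3.3e-05). Tufm, the elongation factor that brings tRNAs to the ribosome, fell by 0.56 at 6 h (adjusted p = 0.0041) and 0.45 at 24 h (adjusted p = 0.015); the slide block gave adjusted p-values of 0.13 and 0.20, and without unstimulated array A the 24 h change was not called either (adjusted p = 0.065). Guf1, a translational GTPase gene, fell by 0.82 at 6 h (adjusted p = 0.00028), but with normexp on every local background by 0.42 (adjusted p = 0.24). Gfm1, the translocation factor, fell by 0.68 at 24 h (adjusted p = 0.0077; 0.20 with the block). The rise of Mtif3 by 0.37 at 24 h (adjusted p = 0.039) was lost with the block (adjusted p = 0.17) and without unstimulated array B or C, the 6 h array A or the 24 h array B or C (adjusted p up to 0.17).

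Among 18 enzymes that charge mitochondrial tRNAs or amidate them, 11 fell at 6 h and 8 at 24 h, where 23.6% and 21.4% of all genes tested were called lower. The threonyl-tRNA synthetase gene Tars2 fell by 0.93 at 6 h (adjusted p = 1e-04), Gatb, for a subunit of the amidotransferase, by 0.75 at 24 h (adjusted p = 0.0019), and the tyrosyl-tRNA synthetase gene Yars2 by 0.99 and 0.98 at 6 and 24 h (adjusted p = 0.00075 and 0.00083), though the slide block gave Yars2 adjusted p-values of 0.13 and 0.16 and normexp on every local background a change of −0.62 at 6 h with 0.084. Sars2, whose start lies 147 bases from that of Mrps12 on the other strand, changed by −0.34 at 6 h (SE 0.15, adjusted p = 0.085), beside the fall of 0.70 of Mrps12. Of 21 assembly factors and rRNA-modifying enzymes, 9 fell at 6 h (23.6% of all genes tested were called lower) and 6 at 24 h, a share not far above the 21.4% of all genes tested. The ribosomal GTPase gene Mtg1 fell by 0.93 at 6 h (adjusted p = 0.0011), Mpv17l2 by 0.77 at 6 h (adjusted p = 0.00022) and the rRNA methyltransferase gene Mrm3 by 0.72 at 24 h (adjusted p = 0.001; 0.073 with the block). None of these 2 lists' genes was called higher at 6 or 24 h, and at an unadjusted p under 0.05 at most 2 of a list were.

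Of 13 genes of the machinery that copies and transcribes mitochondrial DNA, 6 fell at 6 h and 7 at 24 h, beside 23.6% and 21.4% of all genes tested, and the 13 changes ran up to 0.02 and 0.22. Tfam, which packages mitochondrial DNA and starts its transcription, stood at −0.90, −0.83 and −0.83 in unstimulated cells, −1.27, −1.87 and −1.21 at 1 h, −1.24, −1.27 and −1.09 at 6 h, and −1.51, −1.60 and −1.81 at 24 h. All treated arrays were below the unstimulated ones; the change was −0.35 at 6 h (adjusted p = 0.11) and −0.78 at 24 h (adjusted p = 0.002), the latter not called under the slide block (adjusted p = 0.28). At 1 h Tfam fell by 0.60 (adjusted p = 0.042), a call lost with the block (adjusted p = 0.38) and without any of 7 single arrays, namely the unstimulated arrays A, B and C, the 1 h arrays A and B and the 6 h arrays A and B (adjusted p up to 0.13). Without the 1 h array B, its 6 h change was called. Polg2, the accessory subunit of the mitochondrial DNA polymerase, fell by 0.78 at 6 h (adjusted p = 1e-04) and was changed by 0.07 at 24 h (adjusted p = 0.65). With normexp on every local background the 6 h value was −0.48 for Polg2 (adjusted p = 0.14) and −0.44 for Trmt10c (adjusted p = 0.20). Trmt10c, for a subunit of mitochondrial RNase P, fell by 0.71 at 6 h and the topoisomerase gene Top1mt by 0.68 at 24 h (adjusted p = 0.0028 and 0.0011), both lost with the block (adjusted p = 0.08 and 0.22).

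Of 7 regulators of mitochondrial biogenesis tested, 3 fell and 1 rose at 6 h, and 3 fell at 24 h. Over all genes tested, 23.6% were called lower and 16.1% higher at 6 h, and 21.4% lower at 24 h. With 7 genes these counts say little about the list. Ppargc1b, a coactivator of nuclear genes for mitochondrial proteins, went from 1.97, 1.73 and 1.69 in unstimulated cells to 0.24, 0.23 and 0.31 at 6 h and 0.58, 0.46 and 0.18 at 24 h. The groups were far apart, and the change was −1.54 at 6 h (SE 0.12, adjusted p = 1.6e-06) and −1.39 at 24 h (adjusted p = 5.8e-06). Myc, a growth regulator, went from −0.98, −0.95 and −1.12 to −2.72, −2.47 and −3.58 at 24 h (log2 change −1.91, adjusted p = 6.6e-05). Its fall of 0.66 at 6 h (adjusted p = 0.045) was not called with slide as a block (adjusted p = 0.64) or without any of 7 single arrays: the 3 unstimulated ones, 1 h A and C, and 6 h A and C (adjusted p up to 0.16). Gabpb1, which encodes a partner of GABPA, was higher by 0.45 at 6 h (adjusted p = 0.014), a call lost without the 6 h array A or B (adjusted p up to 0.074). With median centring, the changes of Ptcd3, Guf1, Mtg1, Mpv17l2 and Trmt10c at 6 h, of Gfm1 and Mtg1 at 24 h, and of Dap3 and Tufm at both times were not called (adjusted p between 0.064 and 0.35). In that setting the calls of Yars2, Myc and Gabpb1 at 6 h were lost too (adjusted p = 0.065, 0.15 and, rounded, 0.05). So were those of Mtif3 at 24 h (adjusted p = 0.58) and Tfam at 1 h (adjusted p = 0.32).

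The list of respiratory chain and ATP synthase genes held nuclear genes only, not the mitochondrially encoded subunits that are translated on these ribosomes. Of its 82 genes tested, 28 fell at 6 h and 48 at 24 h, with medians of −0.32 and −0.49. None was called higher (0 and 1 at an unadjusted p under 0.05). Over all genes tested, the shares called lower were 23.6% and 21.4%, and those called higher 16.1% and 17.9%. Of 82 genes for cytosolic ribosomal proteins, 1 fell and 1 rose at 6 h and 10 fell at 24 h, with medians of 0.13 and −0.16. The mitochondrial and cytosolic families thus differed in the share called at 6 h, 43 of 76 against 1 of 82 lower, a difference that was described and not tested.

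**Figure D4:**
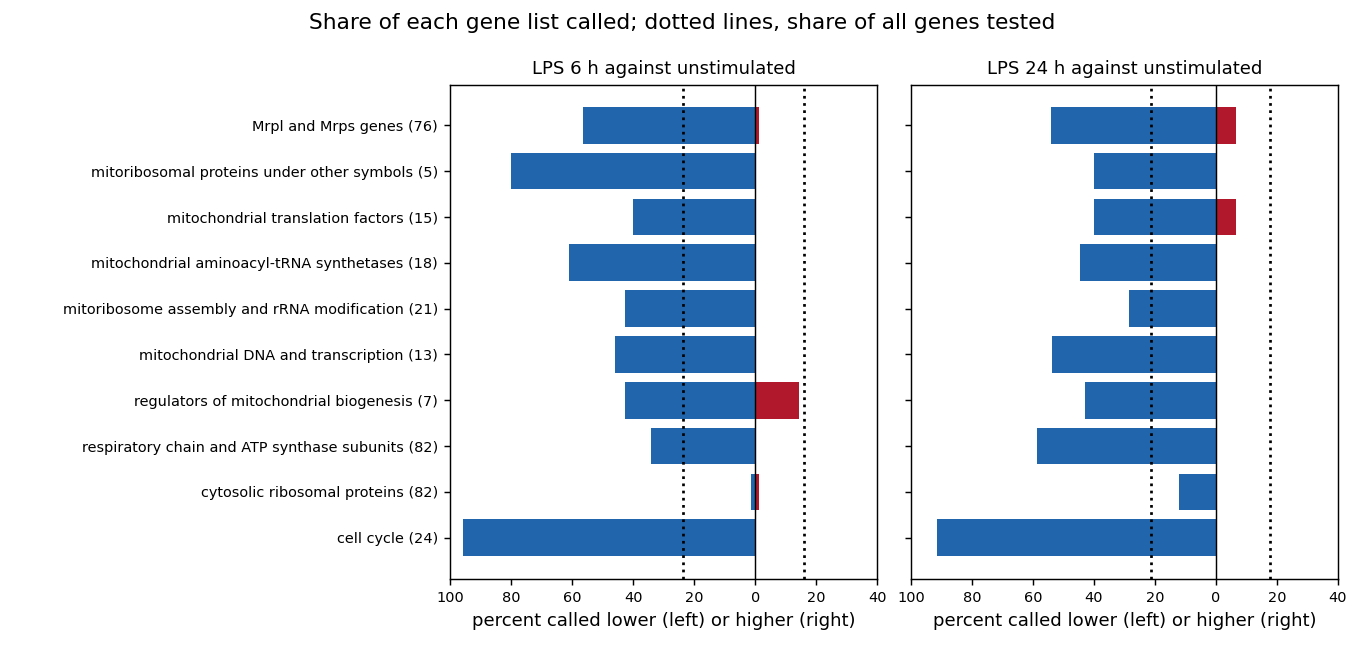
Bars show, for each gene list and its number of genes tested, the percent called lower (blue, to the left) or higher (red, to the right) at 6 and 24 h of LPS; dotted lines mark the shares of all genes tested. The mitochondrial lists lie beyond the dotted line on the lower side at both times, cytosolic ribosomal proteins lie short of it, and cell cycle genes reach furthest, with 23 and 22 of 24 called lower.

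Cell cycle genes and markers of neutrophils and of mast cells or basophils moved together with the family, and their part in the result was not tested. Beside the counts below, 23.6% of all genes tested were called lower and 16.1% higher at 6 h, and 21.4% and 17.9% at 24 h. Of 24 cell cycle genes, 23 fell at 6 h and 22 at 24 h, with a median change of −1.61 at 6 h, and their mean log2 ratio per array ranged from −0.83 to −0.60 in unstimulated cells, −2.16 to −1.05 at 1 h, −2.58 to −1.65 at 6 h and −2.77 to −2.41 at 24 h. Rrm2, for a ribonucleotide reductase subunit of S phase, went from −0.64, −0.42 and −0.94 to −3.31, −3.53 and −2.57 at 6 h, and Ccnb2, for a mitotic cyclin, from −0.08, 0.01 and −0.17 to −2.49, −3.32 and −1.32. In both, the 6 h array C was the highest of its group, as it was for 58 of the 76 mitochondrial ribosomal protein genes. Of 8 neutrophil markers tested, 7 fell and 1 rose at 6 h and at 24 h, and their mean per array went from between 2.98 and 3.52 in unstimulated cells to between 1.76 and 2.36 at 1 h, 1.09 and 1.85 at 6 h and 1.03 and 1.86 at 24 h. Of 6 mast cell or basophil markers tested, 3 fell at 6 h and 3 at 24 h, and their mean per array went from between 0.48 and 0.51 in unstimulated cells to between 0.05 and 0.13 at 6 h and 0.02 and 0.31 at 24 h. Eosinophil markers, of which 4 were tested, had means of 2.91 to 3.12 in unstimulated cells and 2.16 to 2.62 at 24 h, where 1 fell. Elane and Retnlg of the neutrophil list were never well above background. Macrophage or monocyte markers, of which 9 were tested, had a mean between 1.85 and 2.06 in unstimulated cells and between 1.34 and 1.63 at 24 h, where 6 fell and 2 rose. Of the listed B cell markers and T or NK cell markers, 2 of each passed the filter, and Ms4a1, Pax5, Ebf1, Cd3d and Ncr1 were never well above background.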

How the data were processed

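Each array was hybridised with 750 ng of labelled cRNA, and per the file headers the slides were read with Agilent Feature Extraction 10.7.3.1, whose deposited intensity values (median spot and local background signal per channel, one file per array) were used. A table of log2 ratios that the authors deposited served as an alternative. Any normalization of it is not given in the sources used here. The columns correlated with the ratios computed here with r between 0.9992 and 0.9998.

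In R 4.3.3 with limma 3.58.1, local backgrounds marked as outliers were replaced by the array's median background. Signals were then corrected with normexp (offset 50), and ratios were normalized by loess (span 0.3) with 1639 of 45018 spots, the controls, at weight 0. Between 137 and 234 outlier spots per array were left out, and spots of a probe were averaged. Symbols came from RefSeq accessions, for 22951 of 41174 probes. No array-wide counts exist for such data, so precision rests on the 3 arrays per group. A model of group means over all 12 arrays, with 8 residual degrees of freedom, was tested by limma with Benjamini-Hochberg adjustment over 11095 genes, and a gene was called at an adjusted p under 0.05. All p-values in the text are from these limma fits and measure only the spread between these arrays. The steps were tested on simulated data.

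The named genes are the 6 largest called rises and falls against unstimulated cells, the 4 largest in the other comparisons, every called change of at least 2-fold, the 2 largest called rises and falls of each other list at 6 and 24 h, and some given whatever their values (Mrpl12, Mrpl27, Mrps12, Mrps18b, Mrps35, Dap3, Tfam, Tufm, Ppargc1b and Myc). Mrps11, Mrpl46, Mrps2, Mrps7, Mrps36, Sars2 and values of a named gene in other comparisons were added after their values were seen. The genes and the lists were chosen with earlier results of these data known.

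Alternatives covered background, normalization, Cy5 alone, the filter, the probe rule, slide or donor as a block, and leaving out each array. The labels give the same donor letters in each group. Deviations from the group means correlated with a median r of 0.109 for the 18 pairs of arrays with the same letter (from −0.21 to 0.584) and −0.0135 for the 36 pairs with different letters (from −0.529 to 0.406). The letters pair the samples through the labels' donor field; values with this block stand beside the results whose call they change.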

Additional observations from a re-analysis of the deposited data

How the results depend on the processing

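The fall of the family at 6 and 24 h kept its direction in each alternative run, but the number of genes called did not. With median centring in place of loess, the counts were 0 lower at 1 h, 10 lower and 0 higher at 6 h, 21 lower and 0 higher at 24 h, 0 lower from 1 to 6 h, 0 in either direction from 6 to 24 h, and 12 in the F test. The family's median turned to 0.032 from 1 to 6 h and to −0.24 from 6 to 24 h, while the median of all genes moved to 0.13 and −0.18. That setting also moved the share of higher among all called genes from 54.4% to 79.6% at 1 h and from 40.6% to 67.3% at 6 h. It called 246 of all genes lower from 1 to 6 h, and 96 higher and 831 lower from 6 to 24 h. With slide as a block, which leaves 5 residual degrees of freedom, the counts were 2 lower at 1 h and 21 lower and 0 higher at 6 h. They were 16 lower and 0 higher at 24 h, 2 higher and 0 lower from 6 to 24 h, and 25 in the F test. Over all genes, that block gave 55 lower at 1 h, 1008 lower and 949 higher at 6 h, and 913 lower and 848 higher at 24 h. From 6 to 24 h it gave 424 higher and 444 lower. Cy5 alone gave 13 lower at 1 h, 0 higher at 6 h, 3 higher at 24 h, and 5 higher and 0 lower from 6 to 24 h. Of all 11095 genes it called 479 lower at 1 h, 1490 higher at 6 h and 1717 higher at 24 h. From 6 to 24 h it called 829 of all genes higher and 735 lower. Normexp on every local background gave 0 higher at 6 h, 6 lower and 0 higher from 1 to 6 h, and 2 higher from 6 to 24 h. The counts over all genes were 982 higher at 6 h, 742 lower and 636 higher from 1 to 6 h, and 471 higher from 6 to 24 h. Without the filter 2 were higher from 1 to 6 h, beside 1290 of 16358 genes. With the mean of a gene's probes 2 were higher there, beside 1338 of 11095 genes, and 2 lower from 6 to 24 h, beside 954. With the donor letter as a replicate block, which pairs the arrays, 7 were lower at 1 h, beside 519 of all genes. From 1 to 6 h 2 were higher, beside 1435 of all genes, and from 6 to 24 h 2 were lower, beside 1127. The other counts of the family stayed within 1.5 times. The cause of these differences was not tested.

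Leaving out each array in turn gave 2 to 9 lower at 1 h, 36 to 46 lower and 1 to 2 higher at 6 h, and 30 to 41 lower and 4 to 6 higher at 24 h. From 1 to 6 h it gave 10 to 25 lower and 1 to 2 higher, from 6 to 24 h 2 to 10 higher and 0 to 4 lower, and in the F test 41 to 49. At 6 h the 2 higher genes appeared without the 24 h array C. From 6 to 24 h, 4 were lower without the 24 h array A, 2 without the 1 h array B or the 24 h array B, and 0 without the 6 h array B or C or the 24 h array C. Over the named genes and the alternatives other than leaving out an array, 747 values kept their side of the threshold, 109 lost the call and 4 gained one. Among these values of named genes, no called one changed sign, and 2 that were not called did under some settings, Mrpl27 and Myc at 1 h. Over the whole family, some called changes did turn with median centring. There, 19 of the 20 genes called from 1 to 6 h and 9 of the 11 called from 6 to 24 h kept their sign. With 3 arrays per group and a median standard error of 0.13, changes much smaller than those called could not be detected.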
